A study of Rattus norvegicus with 6 samples.

Results

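The aminoacyl-tRNA synthetases are the enzymes that load each transfer RNA (tRNA) with its amino acid. A list of 36 of their genes was looked up by symbol in RNA-seq counts of neonatal rat cardiac fibroblasts (NRCFs), and all 36 were among the 21857 symbols of the files. Of these genes, 20 encode cytosolic enzymes and 16, whose symbols end in 2, encode mitochondrial enzymes. NRCFs were primary cells grown from hearts of healthy rats within 3 days of birth. The design text names the rats as Sprague-Dawley, whereas the strain label reads Noway. The control group, Vector, received the empty plasmid and has the genotype label WT. The other group has the genotype label FTO overexpression and received a plasmid with the rat sequence of FTO, a demethylase that removes N6-methyladenosine (m6A) from RNA. The study's methods place the collection of cells 48 h after transfection. Each group had 3 libraries, and no source says whether they came from separate cultures, so the p-values measure the spread between these libraries only.

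The libraries held 13178952 to 17857999 counted reads. Fto itself was at 87.7, 89.6 and 87.3 counts per 1000000 counts of the library (CPM) in the Vector libraries and at 93.2, 90.7 and 92.8 CPM in the other group, 0.06 on the log2 scale (SE 0.0468, edgeR adjusted p = 0.239). Every library labelled FTO lay above every Vector library, but the difference did not pass the test, the fold having a 95% interval of 0.976 to 1.12, and the group is therefore named by its label, as libraries labelled FTO. The fibroblast markers Col1a1, Col3a1, Dcn, Lum, Pdgfra, Thy1 and Vim were all counted in every group, with a sum of 39723 to 40337 CPM in Vector and 19555 to 20486 CPM in the libraries labelled FTO. Most of this sum was Col1a1 and Col3a1, with means of 25793 and 10693 CPM in Vector and 8262 and 3335 CPM in the libraries labelled FTO. Vim was lower as well, whereas Dcn, Lum, Pdgfra and Thy1 were higher, so the sum does not stand for all 7 markers.

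Protein synthesis runs in the cytosol and, separately, in mitochondria, and most amino acids have a synthetase gene for each place. Both kinds are encoded in the nucleus. Some cytosolic synthetases work alone, and others sit together in the multisynthetase complex, which is held by the scaffold proteins AIMP1, AIMP2 and EEF1E1. By the build of their catalytic domain the enzymes fall into class I and class II, and EPRS, a fusion of the glutamyl and prolyl enzymes, has a domain of each. The prolyl activity loads tRNA with proline, an amino acid that the collagen chains made by fibroblasts are rich in. When amino acids run short, the kinase GCN2 (Eif2ak4) raises the transcription factor ATF4, which is known to drive many cytosolic synthetase genes. WARS, the tryptophanyl enzyme, is known as a product of interferon-gamma signalling.

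Most cytosolic synthetases were lower in the libraries labelled FTO, and a minority was higher. Of the 20 genes, 14 fell, 5 rose and Farsa did not pass the test, at an adjusted p-value under 0.05 over 12941 genes. Among all tested genes 65.9% were called, with 32.8% of all tested genes lower and 33.2% higher, against 95% of the cytosolic synthetases, 70% lower and 25% higher. Their median log2 fold change was -0.67, and that of all tested genes was 0.00. The groups were fully apart in CPM for 19 of the 20 genes, 14 below and 5 above Vector. Among all tested genes 70.3% were apart, 34.8% below and 35.5% above. By the study's rule, a log2 difference of 1 or more in size and an unadjusted p-value under 0.05, only Eprs passed among the 36 genes, where 19.6% of all tested genes passed, 9.27% as lower and 10.4% as higher. In bulk RNA, fewer cells of a kind and less RNA per cell cannot be told apart.

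Eprs had the lowest log2 fold change of the cytosolic genes. Its level was 791, 794 and 785 CPM in the Vector libraries and 356, 347 and 362 CPM in the libraries labelled FTO. No library of either group came near the other group. The fitted difference was -1.15 on the log2 scale (SE 0.0381, edgeR adjusted p = 5.3e-13), and 7.55% of all tested genes lay at or below it.

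Cars, which charges cysteine tRNA, was at 147, 142 and 152 CPM in Vector and at 73.9, 75.4 and 71.4 CPM in the libraries labelled FTO. Its log2 difference of -0.997 (SE 0.0486, edgeR adjusted p = 6.5e-11) lay just short of the study's limit of 1, and it ran from -1.02 to -0.976 when single libraries were left out. Lars, the leucyl enzyme, was at 294, 281 and 283 CPM in Vector and at 144, 144 and 149 CPM in the libraries labelled FTO, -0.97 on the log2 scale (SE 0.0417, edgeR adjusted p = 1.4e-11). Both genes were at about the same fraction of their Vector level, and the libraries of each group lay close together. The 95% interval of the fold was 0.425 to 0.476 for Eprs, 0.466 to 0.538 for Cars and 0.479 to 0.542 for Lars, so that Eprs and Cars, neighbours in this order, were not separated by their intervals.

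The other 11 genes that fell charge a wide range of amino acids. Gars (glycine) changed by -0.92, Iars (isoleucine) by -0.91, Sars (serine) by -0.83, Wars (tryptophan) by -0.81, Mars (methionine) by -0.77, Nars (asparagine) by -0.71, Yars (tyrosine) by -0.71 and Aars (alanine) by -0.64 on the log2 scale. Smaller decreases were those of Tars (threonine, -0.42), Farsb (a phenylalanyl subunit, -0.40) and Vars (valine, -0.19). Across the 14 genes the adjusted p-value in the edgeR test was at most 0.00186, that of Vars, and the SE was 0.0376 to 0.0538. Gars bears on both compartments, because a single gene gives the cytosolic and the mitochondrial glycyl enzyme.

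The 5 genes that rose did so by less. Rars, the arginyl enzyme, was at 123, 122 and 117 CPM in Vector and at 161, 162 and 150 CPM in the libraries labelled FTO, 0.38 on the log2 scale (SE 0.0466, edgeR adjusted p = 3.2e-06). Dars, the aspartyl enzyme, was at 103, 105 and 105 CPM in Vector and at 132, 137 and 136 CPM in the libraries labelled FTO, 0.38 on the log2 scale (SE 0.0441, edgeR adjusted p = 2.2e-06). Kars, whose gene also gives both a cytosolic and a mitochondrial lysyl enzyme, was at 167, 163 and 154 CPM in Vector and at 204, 201 and 186 CPM in the libraries labelled FTO, 0.29 on the log2 scale (SE 0.0487, edgeR adjusted p = 1.0e-04). In each of these genes every library labelled FTO lay above every Vector library. Qars (glutamine) rose by 0.27 and Hars (histidine) by 0.16 on the log2 scale. The call of Hars, with an adjusted p-value of 0.00849, was lost without the library Vector replicate 1, where its log2 fold change was 0.13 with an edgeR adjusted p of 0.0525.

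**Figure D1:**
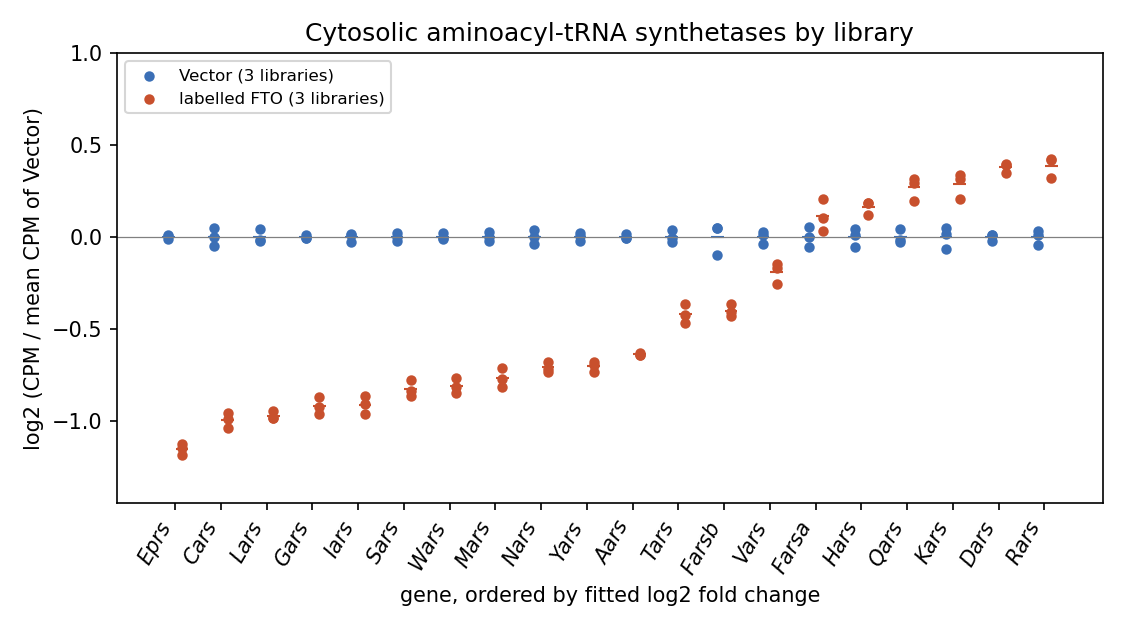
Level of each of the 20 cytosolic synthetase genes in each library, as the log2 ratio of its CPM to the mean CPM of the 3 Vector libraries (vertical axis), with genes ordered by fitted log2 fold change (horizontal axis). Points are single libraries and short lines are group means. The libraries labelled FTO run from about -1.15 at Eprs to 0.38 at Rars, and only at Farsa do the groups overlap.

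The enzymes of the multisynthetase complex went both ways. Of the 8 synthetases in it, Eprs, Iars, Lars and Mars fell, while Dars, Kars, Qars and Rars rose, and the median log2 fold change was -0.25. Of the 12 cytosolic genes outside it, 10 fell, Hars rose and Farsa was not called, with a median of -0.67. The scaffold genes moved little: Aimp2 rose by 0.31 (adjusted p-value 0.00153), Eef1e1 fell by 0.18 on the log2 scale (adjusted p-value 0.0168) and Aimp1 was at 0.10 (adjusted p-value 0.192) in the edgeR test. The classes were mixed as well. With Eprs set aside, as it belongs to both, 7 of the 9 cytosolic class I genes fell and 2 rose, and of the 10 of class II 6 fell and 3 rose. Over all tested genes the shares were 32.8% lower and 33.2% higher.

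Farsa and Farsb encode the alpha and beta subunits of one enzyme, the cytosolic phenylalanyl synthetase, which needs both. Farsa was at 63.3, 61.1 and 58.9 CPM in Vector and at 62.4, 70.4 and 65.5 CPM in the libraries labelled FTO. Its log2 difference of 0.11 (SE 0.0594, edgeR adjusted p = 0.108) did not pass. Farsb was at 104, 104 and 94.4 CPM in Vector and at 74.9, 78.3 and 76.0 CPM in the libraries labelled FTO, -0.40 on the log2 scale (edgeR adjusted p = 9.1e-06). The subunits thus differed in their change. The log2 ratio of Farsb to Farsa was 0.72 ± 0.0460 in Vector and 0.21 ± 0.0554 in the libraries labelled FTO (SD, n = 3), without overlap. A two-sided exact permutation test gave p = 0.1, the smallest value that 3 against 3 libraries allow. Any ratio without overlap gives this value, so the test adds nothing to the lack of overlap.

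The DNA around the start of these genes was then read for an element that the ATF4 pathway is known to use, because members that moved together may share sequence. Promoter windows of 250 bases before and 50 bases after the annotated start came from RefSeq (build GRCr8), with 1 window for 33 of the 36 genes. Dars, Gars and Rars had no entry. The core searched was TGATGNAA, on both strands. It was in 7 of the 17 cytosolic windows, 41.2%, in 0 of the 16 mitochondrial windows, in 3.82% of the windows of all genes and in 1.98% of those of tested genes. Each of the 7 genes had a match that read TGATGCAA on one strand or the other, a form found in 0.553% of the windows of tested genes. The matches of 6 genes are shown because they are shared by genes that fell, each with 30 bases 5′ to 3′ on the strand of the gene and the match in capitals, which reads TTGCATCA where it lies on the opposite strand.
Cars: cggcgccgcggTTGCATCAgattctggaaa
Iars: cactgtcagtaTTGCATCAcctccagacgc
Mars: gcccgttccggTTGCATCAgcgtgggctcc
Nars: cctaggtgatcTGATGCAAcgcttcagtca
Tars: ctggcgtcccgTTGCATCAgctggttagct
Yars: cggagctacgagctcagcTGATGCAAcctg

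These stretches lie at chr1:208225334-208225363 on the minus strand for Cars, chr17:15193658-15193687 on the minus strand for Iars, chr7:65023752-65023781 on the minus strand for Mars, chr18:60275778-60275807 on the minus strand for Nars, chr2:62114811-62114840 on the minus strand for Tars and chr5:146820183-146820212 on the plus strand for Yars, all in GRCr8. The counts were made on another build, rn6 by the submitters' processing notes, and carry no coordinates. Counted from the start of transcription, the match began at -27 in Tars, -24 in Iars, -17 in Mars and -14 in Nars, upstream of the annotated start, and at 18 in Cars and 39 in Yars, downstream of it.

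All 7 genes with the core fell, by 0.42 to 0.997 on the log2 scale with a median of -0.71. So did 6 genes with a window and no match, Eprs, Farsb, Lars, Sars, Vars and Wars, with a median of -0.82. None of the 3 risen genes with a window, Hars, Kars and Qars, had the core. In all, 13 of the 17 cytosolic genes with a window fell. Among all tested genes the core was in 2.54% of the windows of lower genes, 1.58% of higher and 1.81% of uncalled ones. Whether the core goes with the direction of change was not tested. A match is a stretch of letters and no measure of binding, and these letters were read only within these windows.

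The mitochondrial synthetases showed no common direction. Of the 16 genes, Mars2 had no count in any library and was not tested, 3 rose, 3 fell and 9 did not pass, with a median log2 fold change of 0.02. The share called was 40%, below the 65.9% of all tested genes. The groups were apart in CPM for 6 of the 15 tested genes, also 40%, against 70.3% of all tested genes. The mitochondrial genes were, however, also counted less deeply. Their mean counts per library were 32.2 to 1210, against 937 to 8363 for the cytosolic genes, and the SE of the log2 fold change was 0.0520 to 0.226, against 0.0376 to 0.0594. The median size of the log2 fold change, whatever its sign, was 0.19 for the mitochondrial genes, 0.67 for the cytosolic genes and 0.36 for all tested genes.

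The genes that rose charge serine, proline and valine tRNAs of mitochondria. Sars2 was at 8.55, 8.31 and 9.55 CPM in Vector and at 14.7, 13.96 and 13.8 CPM in the libraries labelled FTO, 0.68 on the log2 scale (SE 0.106, edgeR adjusted p = 4.2e-05). Pars2 was at 7.53, 7.44 and 9.97 CPM in Vector and at 12.97, 12.8 and 11.6 CPM in the libraries labelled FTO, 0.58 on the log2 scale (SE 0.129, edgeR adjusted p = 0.00104). Vars2 was at 14.9, 14.7 and 17.0 CPM in Vector and at 18.4, 18.3 and 21.5 CPM in the libraries labelled FTO, 0.33 on the log2 scale (SE 0.0987, edgeR adjusted p = 0.00854). In all 3 the groups did not overlap, although the highest Vector library of Vars2 and of Pars2 came within 2 CPM of the lowest library labelled FTO.

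The genes that fell charge asparagine, alanine and cysteine tRNAs of mitochondria, and their cytosolic counterparts fell too. Nars2 was at 10.5, 12.3 and 11.6 CPM in Vector and at 7.85, 7.62 and 7.03 CPM in the libraries labelled FTO, -0.62 on the log2 scale (SE 0.117, edgeR adjusted p = 2.7e-04). Aars2 was at 14.1, 17.1 and 16.6 CPM in Vector and at 10.8, 11.9 and 11.1 CPM in the libraries labelled FTO, -0.51 on the log2 scale (SE 0.106, edgeR adjusted p = 6.3e-04). Cars2 was at 14.9, 14.1 and 13.7 CPM in Vector and at 10.5, 11.6 and 10.9 CPM in the libraries labelled FTO, -0.37 on the log2 scale (SE 0.0995, edgeR adjusted p = 0.00433). Each library labelled FTO lay below each Vector library in these genes.

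A further 9 tested mitochondrial genes had log2 fold changes from -0.19 (Ears2) to 0.20 (Fars2), with adjusted p-values of 0.119 or more in the edgeR test. Iars2, the isoleucyl enzyme and the most deeply counted of them, was at 80.6, 80.1 and 83.0 CPM in Vector and at 83.9, 78.3 and 85.5 CPM in the libraries labelled FTO. The groups overlapped, and the 95% interval of its fold was 0.942 to 1.10. Ears2, the glutamyl enzyme, had only 32.2 counts per library on average, and the interval of its fold was 0.629 to 1.23, which leaves room for a change of the size seen in Nars2. Lars2, at -0.16 with an adjusted p-value of 0.175, passed only without the library FTO replicate 3, where it was at -0.26 with an edgeR adjusted p of 0.0316.

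**Figure D2:**
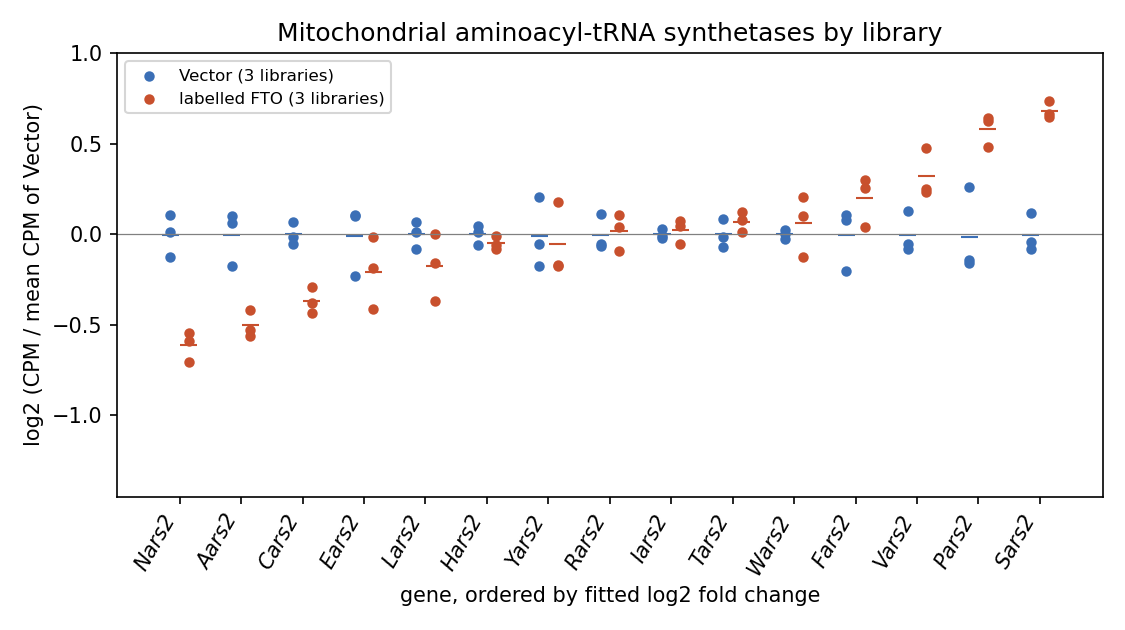
Level of each of the 15 tested mitochondrial synthetase genes in each library, as the log2 ratio of its CPM to the mean CPM of the 3 Vector libraries (vertical axis, the same scale as for the cytosolic genes), with genes ordered by fitted log2 fold change (horizontal axis). Points are single libraries and short lines are group means. The groups are apart only for the 3 genes at each end, Nars2, Aars2 and Cars2 on the left and Vars2, Pars2 and Sars2 on the right. This is 40% of the 15 genes, where the groups were apart for 70.3% of all tested genes.

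Summed over genes, the 20 genes listed as cytosolic lost a part of their reads and the 16 listed as mitochondrial did not. Gars and Kars, which also give mitochondrial enzymes, were summed with the cytosolic genes. Their mean levels went from 362 to 191 CPM and from 161 to 197 CPM. Within the mitochondrial sum, Iars2 alone held a mean of 81.2 CPM in Vector and 82.6 CPM in the libraries labelled FTO. The 20 cytosolic genes together held 4898, 4850 and 4844 CPM in the Vector libraries and 3248, 3295 and 3226 CPM in the libraries labelled FTO. The mean dropped by 33.1%, and still by 28.8% when Eprs was left out of the sum. The mitochondrial genes together held 278, 277 and 291 CPM in Vector. In the libraries labelled FTO they held 285, 280 and 289 CPM, within the range of Vector. The ratio of the sums was 17.3 ± 0.549 in Vector and 11.4 ± 0.294 in the libraries labelled FTO (SD, n = 3). These sums weigh genes by their read number and not per length, so the ratio is compared between groups only, and, since the genes were chosen with results known, without a test.

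Gene by gene, a cytosolic enzyme was set beside the mitochondrial enzyme for the same amino acid within each library, in 16 pairs. The pairs share genes, as Eprs stands for both glutamate and proline and Fars2 for both phenylalanyl subunits. The mean log2 ratio of cytosolic to mitochondrial CPM was lower in the libraries labelled FTO in 14 pairs. The change was widest for proline, where the log2 ratio of Eprs to Pars2 went from 6.58 ± 0.247 to 4.83 ± 0.112 (SD, n = 3), a change of -1.75 (SE 0.157). For serine the ratio of Sars to Sars2 changed by -1.51 (SE 0.0854). In both pairs the cytosolic gene fell and the mitochondrial gene rose, which was also so for Vars and Vars2, with a change of -0.51 (SE 0.123).

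In further pairs the cytosolic gene fell and the mitochondrial gene did not pass the test. For Ears2 and Lars2 this does not show that the mitochondrial gene was unchanged. The ratio of Eprs to Ears2 changed by -0.96 (SE 0.149), that of Iars to Iars2 by -0.94 (SE 0.0581), that of Wars to Wars2 by -0.87 (SE 0.0948) and that of Lars to Lars2 by -0.80 (SE 0.1002). For asparagine and alanine, where both genes fell, the ratio changed by -0.10 (SE 0.109) and -0.14 (SE 0.0951), and the libraries of the groups overlapped, as they did for Farsa and Fars2. The ratio was higher in the libraries labelled FTO only for arginine (0.37, SE 0.107) and histidine (0.21, SE 0.0551), whose cytosolic genes rose.

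**Figure D3:**
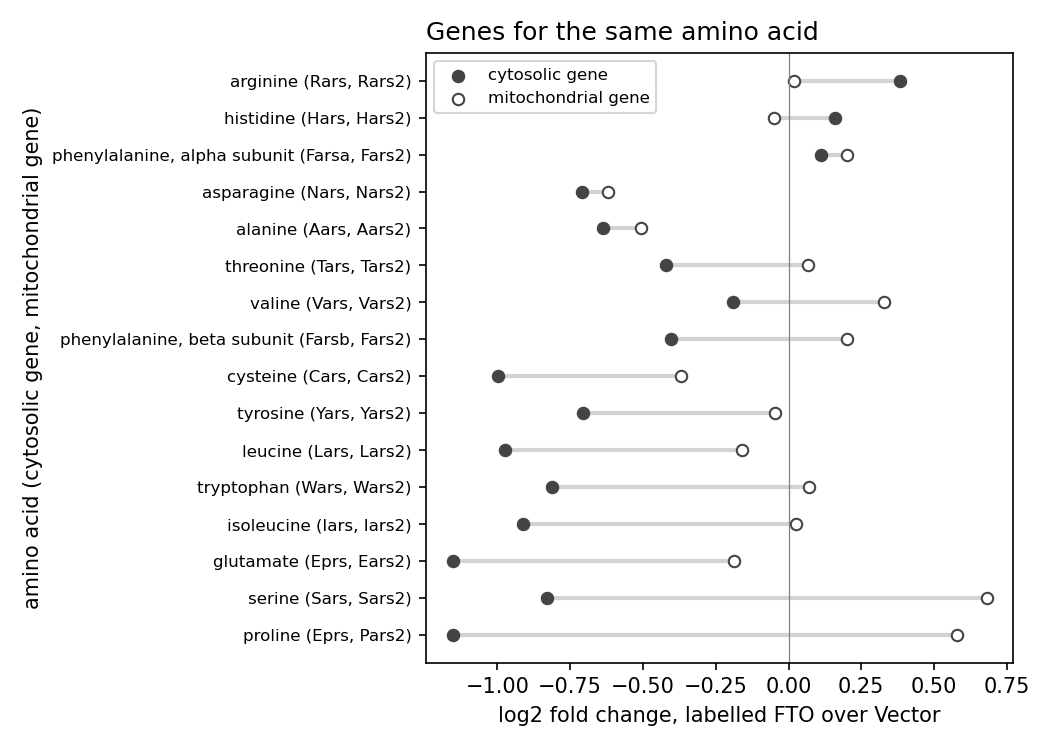
Fitted log2 ratio of labelled FTO to Vector (horizontal axis) for the cytosolic gene (filled) and the mitochondrial gene (open) of the same amino acid, 16 pairs ordered by the change of their ratio (vertical axis). Filled points lie left of open points in 14 pairs, with the widest gap for Eprs and Pars2 and the reverse order for arginine and histidine.

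Eprs and Wars were compared directly, since one loads tRNA with the proline used in collagen and the other is known for its response to interferon-gamma. Both fell. Wars was at 217, 214 and 212 CPM in Vector and at 126, 122 and 119 CPM in the libraries labelled FTO, -0.81 on the log2 scale (SE 0.0428, edgeR adjusted p = 1.7e-10). The 95% interval of its fold, 0.535 to 0.607, lay above that of Eprs, 0.425 to 0.476. The ratio of Wars to Eprs CPM within a library was 0.274, 0.269 and 0.271 in Vector and 0.354, 0.350 and 0.329 in the libraries labelled FTO, so the groups did not overlap. On the log2 scale it was higher by 0.34 (SE 0.0343). The two-sided exact permutation test gave p = 0.1, the smallest value that 3 against 3 libraries allow and the one that any ratio without overlap gives. As a share of all cytosolic synthetase reads, Eprs went from 16.2% ± 0.119 to 10.9% ± 0.340 and Wars from 4.41% ± 0.0245 to 3.75% ± 0.107 (SD, n = 3).

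**Figure D4:**
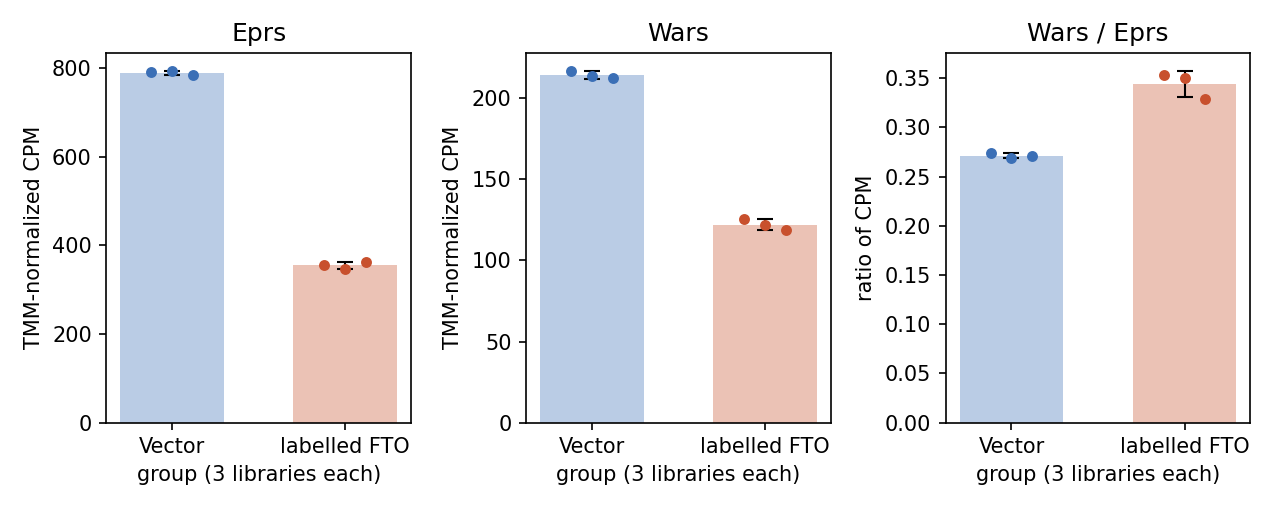
Levels of Eprs and Wars in TMM-normalized CPM and the ratio of Wars to Eprs (vertical axes, each from 0) in the Vector libraries and the libraries labelled FTO (horizontal axis). Bars are means, error bars the SD of 3 libraries and points single libraries. Both genes are lower in the libraries labelled FTO, and the ratio is higher, at 0.329 to 0.354 against 0.269 to 0.274.

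The tested interferon-gamma genes did not go the way of Wars. Of 15 genes listed, 13 were tested and all 13 rose, where 33.2% of all tested genes did, with a median log2 fold change of 2.90. Their changes ran from 0.97 for Irf1, a transcription factor of the response, to 8.05 for the chemokine Cxcl10, which was at 0.439, 0.335 and 0.346 CPM in Vector and at 117, 86.6 and 99.3 CPM in the libraries labelled FTO. Cxcl9, another chemokine, had no count in Vector and was at least 6.54-fold higher against a floor of 3 counts per library. With Cxcl9 set to that bound the median of the list was 2.71. Cxcl9 and Cxcl10, the latter with as few as 5 counts, were under the minimum count of 10 in every Vector library. They passed the filter only through the libraries labelled FTO, so their rise was fixed once they were tested. Among the other tested genes the largest rise was that of the GTPase Gbp5, 5.34 on the log2 scale. Ido1 and Ciita had too few counts to be tested, and they went opposite ways. Ciita was at 0.292, 0.872 and 0.554 CPM in Vector and lower, at 0.210, 0 and 0.279 CPM, in the libraries labelled FTO. Ido1 had no count in Vector and was at 0.491, 0.302 and 0.335 CPM in the libraries labelled FTO. In the promoter windows, the core of the interferon-stimulated response element was searched on both strands. It was in 0 of 17 cytosolic and 1 of 16 mitochondrial windows (Mars2), against 3.77% of the windows of all genes and 3.07% of those of tested genes. The STAT element TTCNNNGAA was in 3 cytosolic windows, 17.6% (Lars and Qars among them), and in 2 mitochondrial windows, 12.5% (Nars2 and Wars2). It was in 8.68% of all windows and in 6.79% of those of tested genes. These few matches were not tested.

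Genes of the ATF4 pathway mostly fell, as the cytosolic synthetases did. Of 20 listed genes 19 were tested, and 14 fell and 4 rose, with a median log2 fold change of -0.85, where 32.8% of all tested genes fell and 33.2% rose. Aldh18a1, the entry enzyme of proline synthesis, had at most 1 count in a library and was not tested. The lowest values were those of Pycr1, the last enzyme of proline synthesis (-2.87, SE 0.131), Chac1, which degrades glutathione (-2.86, SE 0.129), and Trib3, a pseudokinase that feeds back on ATF4 (-2.21, SE 0.106), with adjusted p-values of at most 5.4e-11 in the edgeR test. Pycr1 was at 21.1, 25.1 and 21.5 CPM in Vector and at 2.73, 3.55 and 3.01 CPM in the libraries labelled FTO. Atf4 itself, named after its value was seen, was at 425, 421 and 426 CPM in Vector and at 260, 276 and 246 CPM in the libraries labelled FTO, -0.70 on the log2 scale (SE 0.0453, edgeR adjusted p = 2.0e-09).

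Not all genes of that pathway went down. Eif2ak2, the kinase PKR that double-stranded RNA activates and that is also an interferon-induced gene, rose by 1.94 (SE 0.0544). Ddit3, which encodes the stress factor CHOP, rose by 1.28 (SE 0.0678), Ddit4, an inhibitor of mTORC1, by 0.34 and Eif2ak1, a kinase that responds to heme shortage, by 0.29. Eif2ak4, the GCN2 kinase that senses uncharged tRNA, was at -0.09 (SE 0.0689) and did not pass, with an edgeR adjusted p of 0.284.

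**Figure D5:**
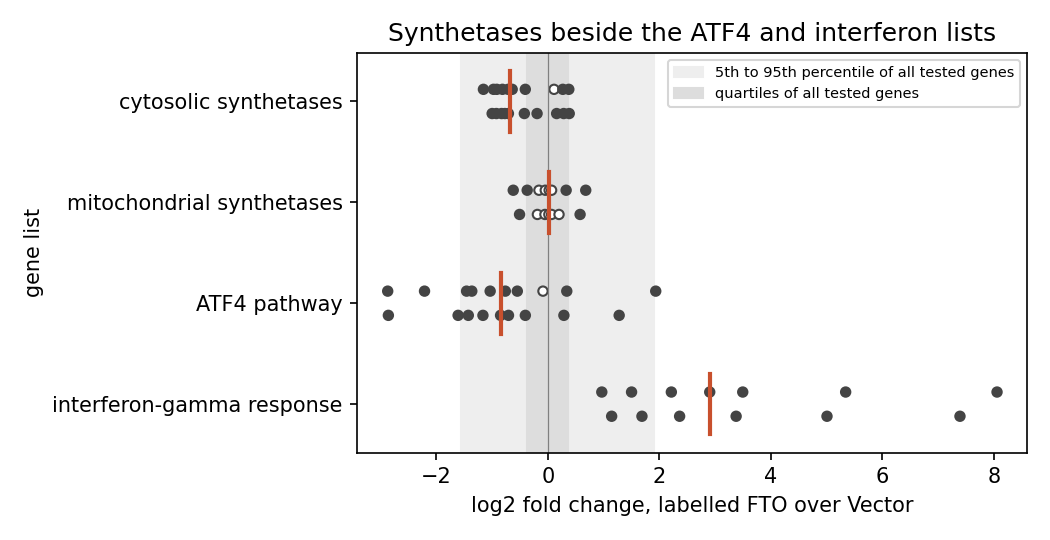
Fitted log2 ratio of labelled FTO to Vector (horizontal axis) for each tested gene of 4 lists (vertical axis), filled where the adjusted p-value was under 0.05, with the list median as a vertical line. Grey bands give the quartiles (-0.36 to 0.36) and the 5th to 95th percentile (-1.55 to 1.91) of all tested genes. The cytosolic synthetases and the ATF4 pathway have medians of -0.67 and -0.85, the mitochondrial synthetases 0.02 and the interferon-gamma list 2.90, where Cxcl9 is drawn at its fitted value although its Vector libraries had no count. Cxcl9 and Cxcl10 passed the count filter only through the libraries labelled FTO.

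Genes that act next to the synthetases varied, where 32.8% of all tested genes fell and 33.2% rose. Xpot, which exports tRNA from the nucleus, fell from 204, 215 and 213 CPM to 119, 106 and 121 CPM, -0.87 on the log2 scale (SE 0.0530, edgeR adjusted p = 1.0e-09). In its list of 9 genes for editing, selenocysteine and the tRNA end it was the only one that fell, and 4 rose, led by the proofreading enzyme Dtd1 (0.58, SE 0.0805). Of the 4 genes of the eEF1 complex, which hands charged tRNA to the ribosome, Eef1a1, Eef1d and Eef1g fell by 0.31, 0.22 and 0.29 on the log2 scale, and Eef1b2 was at -0.00267 with an adjusted p-value of 0.958.

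Among 6 partners of mitochondrial charging and elongation, Gatc rose by 0.29 and Qrsl1 fell by 0.53 on the log2 scale. Both belong to the amidotransferase that makes the glutaminyl tRNA of mitochondria, and the other subunit, Gatb, was at 0.08 with an edgeR adjusted p of 0.508. Of 71 tested mitochondrial ribosomal protein genes, which share a compartment with the mitochondrial synthetases, 40 rose and 3 fell, with a median log2 fold change of 0.20, where 33.2% of all tested genes rose and 32.8% fell.

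Markers of other cell types moved between the groups as well, and their part in the values of the synthetases was not tested. Among all tested genes 65.9% were called, 32.8% lower and 33.2% higher. Of the 6 macrophage markers 5 fell and Adgre1 rose, and their sum was 381 to 397 CPM in Vector and 97.4 to 115 CPM in the libraries labelled FTO, with C1qb near 0 in the latter at 0.0857 ± 0.0226 CPM. Of the 4 tested of 5 mural markers 3 fell and Kcnj8 rose, with a sum of 615 to 641 CPM and 126 to 144 CPM. Most of the Vector sum was Myh11 and Notch3, at means of 315 and 226 CPM. Rgs5 had too few counts to be tested and was higher in the libraries labelled FTO, at 0.528 to 0.911 CPM against 0.268 to 0.366 CPM in Vector. Of the 6 cardiomyocyte markers 5 rose and Tnnt2 fell, with a sum of 1401 to 1423 CPM and 1956 to 1984 CPM. Of the 4 tested of 5 endothelial markers 3 rose, with a sum of 18.8 to 19.3 CPM and 42.8 to 44.2 CPM, and Emcn had no count in Vector. The fibroblast list itself was split, with Dcn, Lum, Pdgfra and Thy1 higher and Col1a1, Col3a1 and Vim lower.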

How the data were processed

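The deposited values were raw counts of the authors, unnormalized, by gene symbol. The labels name a NEBNext RNA kit, and the submitters' processing notes name Trimmomatic and the build rn6. The program that aligned the reads, the one that counted them, the gene annotation and the strand setting are not given in the sources used here, so reads shared by similar or overlapping genes may have been split in unknown ways. Genotype labels set the groups, and titles gave the replicate numbers. Genes were kept with filterByExpr of edgeR (minimum count 10), which left 12941 of 21857 symbols with 99.9% of the counts. CPM were scaled by TMM (factors 0.995 to 1.01). Groups were compared with the quasi-likelihood test of edgeR 4.0.16 in R 4.3.3, two-sided, with Benjamini-Hochberg adjustment over all tested genes, and each SE was derived from the fitted change and its F value. The procedure was tested on simulated counts. The files carry no transcript lengths, so levels are compared between groups and not between genes. Symbols were matched to RefSeq by symbol or synonym. Some promoter stretches are not reported here.

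The members and lists were chosen with earlier results of these data known, and no test was run over a list. Full values are given for Eprs, Wars and, in each class, the 3 called genes that rose most and the 3 that fell most. In the other lists up to 3 genes in each direction were named, and any further gene was picked with its value known. The alternatives tried were DESeq2 1.42.0, limma-voom (limma 3.58.1), DESeq2 size factors, library size alone, no filter, a mean of at least 10 counts, the replicate number as a block and leaving out each library. Within groups, the chi-square of library pairs over its degrees of freedom was 1.58 to 8.38, above the noise of counting, so no library was a copy. The floor covers counting error only and the intervals also the spread of replicates, as the libraries carry no molecular identifiers.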

Additional observations from a re-analysis of the deposited data

How the results depend on the processing

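The count of 14 lower cytosolic synthetases was the same under all 13 alternatives. The count of higher ones was 4 to 5 when single libraries were left out, and those of mitochondrial genes were 3 higher and 3 to 4 lower. With library size alone in place of TMM, the median log2 fold change of the cytosolic genes was -0.66. That of the mitochondrial genes ran from -0.02 to 0.04 when single libraries were left out, so its sign is not settled. The log2 change of the ratio of Wars to Eprs ran from 0.32 to 0.38. Of 35 member genes in 13 alternatives, 445 values kept their direction and side of the threshold, 1 call was lost (Hars) and 1 gained (Lars2), and 8 values reversed, all of genes that were not called. These came from leaving out single libraries, where Iars2 ran from -0.00489 to 0.0633, Rars2 from -0.0179 to 0.0764, Wars2 from -0.00862 to 0.152 and Yars2 from -0.174 to 0.0618. The cause was not tested.

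Deviations from the group means gave no sign that replicate numbers pair the libraries. They correlated at -0.0693 to 0.0207 for the same number and at -0.0935 to 0.0873 for other numbers. With 3 libraries in each group these correlations cannot exclude a shared culture or batch. A fit with a replicate block gave no other call among the synthetases: 5 cytosolic genes were higher and 14 lower, 3 mitochondrial genes were higher and 3 lower, over all genes 4218 were higher and 4181 lower, the medians were -0.67 and 0.02, and the Wars to Eprs change was 0.34. Among tested synthetases depth limits the mitochondrial genes most, above all Ears2. Why Mars2 had no count was not tested.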
